A study of Mus musculus with 2 samples.

Results

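Inflammasomes are protein platforms that sense microbial products or cell damage and switch on inflammatory caspases. A sensor such as NLRP3, NLRP1B, NLRC4, AIM2 or pyrin assembles with the adaptor ASC, encoded by Pycard, and recruits caspase-1, which cuts the precursors of IL-1 beta and IL-18 and the pore-forming protein gasdermin D. Mouse caspase-11, encoded by Casp4, binds bacterial lipopolysaccharide directly and also cuts gasdermin D. In skin these genes are used by neutrophils, macrophages and, for some of them, keratinocytes.

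The 10 genes described here were chosen by name from the 34745 genes of a count table, as 7 sensor genes (Nlrp3, Nlrp1b, Nlrc4, Aim2, Mefv, Naip5 and Nlrp10), 1 adaptor gene (Pycard) and the inflammatory caspase genes Casp1 and Casp4. All 10 were found, and all 10 were measured, meaning that they reached at least 1 CPM in either library, CPM being counts per 1000000 of the scaled library total, as did 15240 genes in all. The table holds ear skin of mice in 2 libraries, 1 labelled KAT8-cKO, a conditional knockout of the histone acetyltransferase gene Kat8, and 1 labelled WT. Ears of both groups carried imiquimod, a TLR7 agonist that causes psoriasis-like inflammation, as 30 mg of a 5% cream per ear on each of 3 days, and were taken on day 4. Neither the driver of the knockout nor the strain, sex, age and number of animals behind a library is given in the sources used here, and no untreated skin was analysed here.

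With 1 library per genotype there were no replicates, no test could be run, and each difference describes these specimens. Folds are plain ratios of scaled CPM, with exact (Clopper-Pearson) 95% intervals that cover counting error only. A gene is called lower or higher where its log2 ratio of CPM + 1, which understates the difference of low genes, is at least 1 in size. The libraries held 13727524 counts (KAT8-cKO) and 12179608 counts (WT). Kat8 itself had 351 counts in the library labelled KAT8-cKO and 219 in the library labelled WT (ratio 1.27, interval 1.07 to 1.51). Counts of the targeted gene were thus not lower, and the libraries are called here by their labels. These counts cover the whole gene and all cells of a specimen. Loss of some exons, or loss in some cells, was not assessed. Transcripts linked to sex also separated them, with Xist at 6 counts in the cKO-labelled and 11891 in the WT-labelled library and Ddx3y at 635 and 5 counts in the same order. Genotype label, sex-linked transcripts and specimen therefore cannot be told apart.

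Of the 10 inflammasome genes, 5 were at least 2-fold lower in the cKO-labelled library and none was higher. The lower genes were Nlrp3, Mefv, Casp1, Casp4 and Naip5. Among all measured genes, 8.63% were lower by the same rule and 4.56% were higher. The median log2 ratio of the 10 genes was -0.83, against 0.01 over all measured genes. With CPM of the plain totals, 3 genes were lower, since Casp4 (log2 ratio -0.97) and Naip5 (-0.87) no longer reached the limit. With these totals 6.94% of all measured genes were lower, and the median of all genes moved up by 0.15. In bulk tissue, fewer cells of a type and less RNA per cell cannot be told apart.

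**Figure D1:**
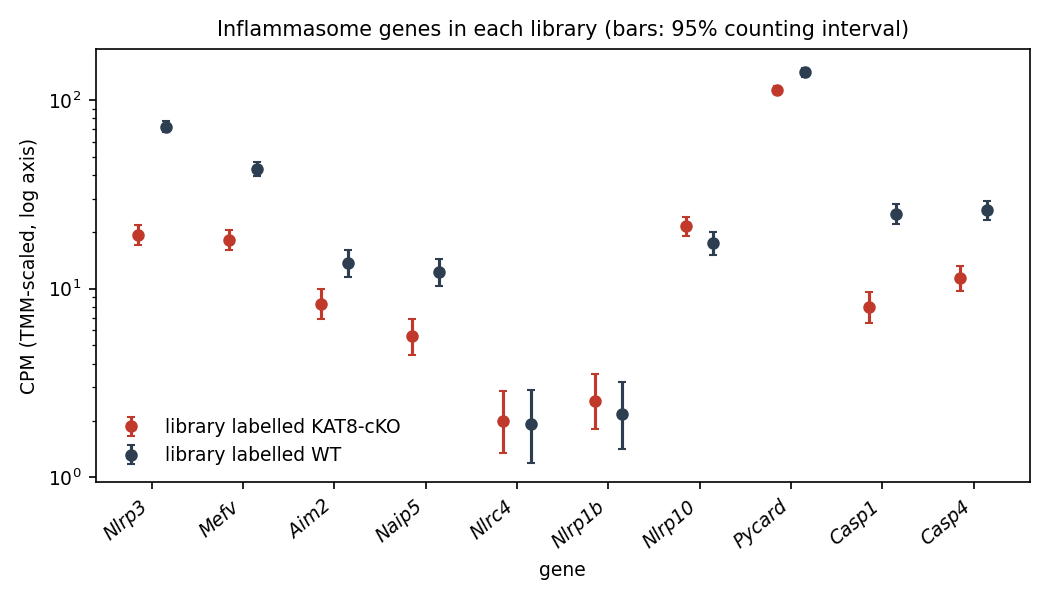
Scaled CPM on a log axis for the 10 inflammasome genes, with the cKO-labelled library in red on the left of each pair and the WT-labelled library in dark blue on the right, and bars for exact Poisson 95% counting intervals. Nlrp3, Mefv, Casp1, Casp4 and Naip5 sit at least 2-fold lower in the cKO-labelled library, while Pycard stays highest in both.

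Upstream sequences of the caspase genes and Nlrp3 are shown because these genes are lower together and because Casp1 and Casp4 are neighbours on chromosome 9. Each run is the 250 bases before a RefSeq transcription start (GRCm38.p6), printed 5′ to 3′ along the gene, and capitals mark matches to the kappa B consensus, bound by NF-kB, or to GAGGAAG, a purine-rich core bound by the myeloid factor PU.1. The Casp1 run lies at chr9:5298267-5298516 and the Casp4 run at chr9:5308599-5308848, both on the plus strand. The Nlrp3 runs belong to 2 annotated starts, the upstream one at chr11:59541319-59541568 and the downstream one at chr11:59542436-59542685, both on the plus strand.
Casp1: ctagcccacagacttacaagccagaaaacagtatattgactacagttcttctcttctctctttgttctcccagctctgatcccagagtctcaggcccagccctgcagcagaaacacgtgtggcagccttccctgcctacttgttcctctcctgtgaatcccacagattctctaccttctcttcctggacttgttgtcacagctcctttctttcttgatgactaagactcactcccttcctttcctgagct
Casp4: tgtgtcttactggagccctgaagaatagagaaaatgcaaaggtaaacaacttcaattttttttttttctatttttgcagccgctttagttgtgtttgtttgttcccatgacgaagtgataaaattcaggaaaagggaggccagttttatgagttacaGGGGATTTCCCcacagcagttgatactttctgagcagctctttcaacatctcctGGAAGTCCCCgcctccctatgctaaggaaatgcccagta
Nlrp3 upstream start: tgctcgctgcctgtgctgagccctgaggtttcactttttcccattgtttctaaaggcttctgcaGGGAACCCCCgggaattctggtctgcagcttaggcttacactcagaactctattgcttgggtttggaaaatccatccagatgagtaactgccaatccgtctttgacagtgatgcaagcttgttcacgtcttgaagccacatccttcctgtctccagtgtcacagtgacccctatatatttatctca
Nlrp3 downstream start: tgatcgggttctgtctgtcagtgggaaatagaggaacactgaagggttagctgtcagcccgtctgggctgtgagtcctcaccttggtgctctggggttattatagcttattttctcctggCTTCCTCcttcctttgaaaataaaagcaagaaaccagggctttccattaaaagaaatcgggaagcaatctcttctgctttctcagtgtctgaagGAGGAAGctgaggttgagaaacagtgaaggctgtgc

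Casp4 held kappa B matches in separate blocks, from 93 to 83 and from 39 to 30 bases before its start, and in the block farther from the start matches on both strands overlap. These distances are from the first of 2 annotated Casp4 starts, and from the other start the same blocks lie from 104 to 94 and from 50 to 41 bases before it. The upstream Nlrp3 window held a kappa B match from 186 to 177 bases before the start, read on both strands. The downstream window held GAGGAAG from 130 to 124 bases before the start on the opposite strand and from 36 to 30 on the same strand. The Casp1 window held neither, nor did those of Mefv and Nlrc4, although Mefv was called lower. GAGGAAG was also in windows of Aim2, Pycard and Nlrp1b, none of which was called lower, and a kappa B match was in the window of Naip5. GAGGAAG was thus in windows of Nlrp3, called lower, and of genes not called lower. Nlrp10, the gene with the highest ratio, had no RefSeq entry and was not searched. Among the 9 genes searched, kappa B matches were in windows of Casp4, Nlrp3 and Naip5, all called lower. Casp1 and Mefv, also lower, held none. A link between the motifs and the calls was not tested. Another motif, the interferon-stimulated response element searched as GAAANNGAAA, was in none of the windows of the 9 inflammasome genes that had a RefSeq entry. Over all 32851 windows of this length, searched on both strands, 7.25% held a kappa B match, 10.6% held GAGGAAG and 2.98% held GAAANNGAAA. A match describes the letters and says nothing of binding in these specimens.

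Of the 7 sensor genes chosen here, Nlrp3 had the lowest ratio. Nlrp3 encodes the sensor of ion efflux and membrane damage, whose own transcription is raised by Toll-like receptor and NF-kB signalling. Nlrp3 (ENSMUSG00000032691, chromosome 11 from 59541568 to 59566956, GRCm38, plus strand) had 279 counts, or 19.2 CPM, in the cKO-labelled library and 830 counts, or 72.0 CPM, in the WT-labelled library. This made it 3.75-fold lower (interval 3.27 to 4.31), and 2.06% of measured genes had a lower log2 ratio.

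Mefv encodes pyrin, an inflammasome sensor expressed mainly in neutrophils and monocytes. Mefv (ENSMUSG00000022534, chromosome 16 from 3707218 to 3718097, minus strand) had 263 counts, or 18.1 CPM, in the cKO-labelled library and 497 counts, or 43.1 CPM, in the WT-labelled library, and was 2.38-fold lower (interval 2.05 to 2.77). Aim2, which encodes a receptor for cytosolic DNA, was lower by less than the limit. Aim2 (ENSMUSG00000037860, chromosome 1 from 173350879 to 173466040, plus strand) had 121 counts, or 8.34 CPM, in the cKO-labelled library and 157 counts, or 13.6 CPM, in the WT-labelled library (1.63-fold lower, interval 1.28 to 2.09). The counting interval of Aim2 therefore spans the 2-fold limit.

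The NAIP and NLRC4 pair gave different readings. NAIP proteins bind bacterial flagellin or secretion system proteins and then recruit NLRC4, with NAIP5 recognising flagellin. Naip5 (ENSMUSG00000071203, chromosome 13 from 100211739 to 100246323, minus strand) had 81 counts, or 5.58 CPM, in the cKO-labelled library and 141 counts, or 12.2 CPM, in the WT-labelled library, a 2.19-fold lower value (interval 1.66 to 2.92) with a log2 ratio of -1.01 that lies at the limit. Nlrc4 (ENSMUSG00000039193, chromosome 17 from 74425438 to 74459142, minus strand) had 29 counts, or 1.998 CPM, in the cKO-labelled library and 22 counts, or 1.91 CPM, in the WT-labelled library. Its ratio of 1.05 carries an interval from 0.581 to 1.91, so a difference smaller than about 2-fold in either direction was not detectable at this depth.

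Naip5 sits in a cluster of close copies, and its reads may be split among them. The first 60 coding bases of the annotated transcripts (GENCODE M21, chromosome 13, minus strand) are shown to make the problem visible, with capitals where a gene differs from Naip5.
Naip5: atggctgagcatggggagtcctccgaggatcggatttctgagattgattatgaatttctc
Naip6: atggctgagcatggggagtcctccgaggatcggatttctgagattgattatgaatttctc
Naip1: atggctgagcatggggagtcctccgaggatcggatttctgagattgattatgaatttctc
Naip2: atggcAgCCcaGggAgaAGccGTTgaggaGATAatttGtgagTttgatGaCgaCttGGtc

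Naip6 and Naip1 are identical to Naip5 over these bases, while Naip2 differs at 21 of them. Over the aligned coding sequence the identity to Naip5 was 97.0% for Naip6, 92.1% for Naip1 and 90.0% for Naip2. Of the windows of 100 bases in the Naip5 transcript, 16.2% also occur in a transcript of another gene. A sum over Naip1, Naip2, Naip5 and Naip6 was chosen after the values were seen and leaves out Naip3. These genes had 232 counts in the cKO-labelled library and 622 in the WT-labelled library, 3.38-fold lower (interval 2.90 to 3.94). Naip2, a sensor of type III secretion rod proteins, had 106 and 420 counts of these in the same order (4.99-fold lower, interval 4.02 to 6.24).

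Nlrp1b and Nlrp10 were within 2-fold. NLRP1B is cleaved by anthrax lethal toxin and is held in check by the peptidases DPP8 and DPP9. Nlrp1b (ENSMUSG00000070390, chromosome 11 from 71153102 to 71230733, minus strand) had 37 counts, or 2.55 CPM, in the cKO-labelled library and 25 counts, or 2.17 CPM, in the WT-labelled library (ratio 1.17, interval 0.689 to 2.04). Together with its neighbour Nlrp1a, whose coding sequence is 86.3% identical, it had 45 and 34 counts in the same order (ratio 1.05, interval 0.658 to 1.69). Both values are too low to place either gene on one side.

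NLRP10 is a sensor without leucine-rich repeats that is expressed in epidermal keratinocytes. Nlrp10 (ENSMUSG00000049709, chromosome 7 from 108921852 to 108930178, minus strand) had 311 counts, or 21.4 CPM, in the cKO-labelled library and 201 counts, or 17.4 CPM, in the WT-labelled library. Its ratio of 1.23 (interval 1.03 to 1.47) was the highest of the 10 genes and short of the limit. Markers of late epidermal differentiation were lower in the cKO-labelled library (9 of 10 called lower, median log2 ratio -2.17), and markers of basal keratinocytes were higher for 2 of 7 (median 0.55). Their part in the Nlrp10 value was not tested.

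Pycard, the adaptor gene, was the most abundant of the group and differed little. Pycard (ENSMUSG00000030793, chromosome 7 from 127989708 to 127993867, minus strand) had 1632 counts, or 112 CPM, in the cKO-labelled library and 1610 counts, or 140 CPM, in the WT-labelled library. It was 1.24-fold lower (interval 1.16 to 1.33), and its log2 ratio of -0.31 was -0.15 with plain totals. Its exons overlap those of the antisense gene Gm45205, which had 3 counts in the cKO-labelled library and 1 in the WT-labelled library. It is the single gene of the 10 with an exon that overlaps another gene.

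The inflammatory caspase genes were lower together. Caspase-1 is the protease that all canonical inflammasomes activate. Casp1 (ENSMUSG00000025888, chromosome 9 from 5298517 to 5307265, plus strand) had 116 counts, or 7.99 CPM, in the cKO-labelled library and 287 counts, or 24.9 CPM, in the WT-labelled library, and was 3.12-fold lower (interval 2.504 to 3.90). Casp4 (ENSMUSG00000033538, chromosome 9 from 5308828 to 5336783, plus strand) had 165 counts, or 11.4 CPM, in the cKO-labelled library and 299 counts, or 26.0 CPM, in the WT-labelled library, and was 2.28-fold lower (interval 1.88 to 2.78).

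Casp12, the next gene along the same strand, had 98 counts in the cKO-labelled library and 134 in the WT-labelled library, with a log2 ratio of -0.70. The coding sequences of Casp1 and Casp4 are 65.4% identical, and no window of 100 bases in either transcript set occurs in another gene. The number of Casp1 counts per Pycard count was 0.0711 in the cKO-labelled library and 0.178 in the WT-labelled library (quotient 0.399, log-scale 95% counting interval 0.318 to 0.500). That of Nlrp3 counts per Pycard count was 0.171 in the cKO-labelled library and 0.516 in the WT-labelled library (quotient 0.332, interval 0.285 to 0.386). These ratios do not depend on library scaling. Nlrp3 and Casp1 were thus lower relative to Pycard as well as to all counts. No such quotient to Pycard was computed for the other sensor genes or for Casp4.

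**Figure D2:**
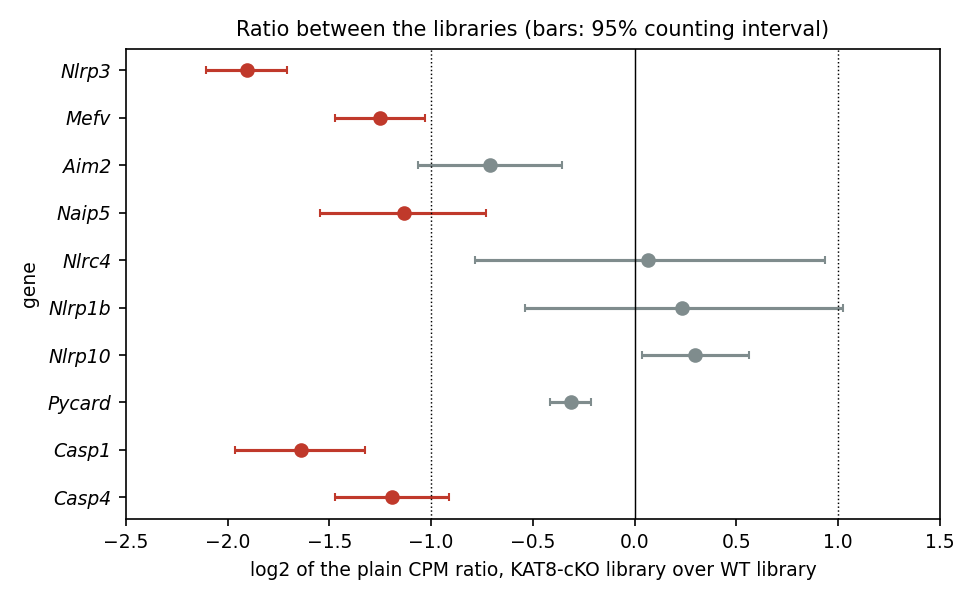
Log2 of the plain CPM ratio of the cKO-labelled over the WT-labelled library for each inflammasome gene, with bars for exact 95% counting intervals and dotted lines at a 2-fold difference either way. Red points are the 5 genes called lower, and the intervals of Casp4 and Naip5 cross the limit while those of Nlrp3, Mefv and Casp1 do not.

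Per length, Pycard stood first in both libraries, with 29.6 CPM per kilobase of annotated exon in the cKO-labelled library and 36.8 in the WT-labelled library. In the cKO-labelled library Mefv (5.57), Casp1 (5.34), Nlrp10 (4.76) and Nlrp3 (4.74) followed, with counting intervals that overlapped. In the WT-labelled library the next places went to Nlrp3 (17.8) and Casp1 (16.6), whose intervals overlapped, and then to Mefv (13.3). Casp4 had 3.06 and 6.996 CPM per kilobase in the cKO-labelled and WT-labelled libraries, and Naip5 had 1.07 and 2.35.

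Nlrp10 had place 4 in the cKO-labelled library and place 7 in the WT-labelled library, where Aim2 (3.89) and Nlrp10 (3.87) could not be separated. Nlrc4 and Nlrp1b were last in both, at 0.416 and 0.404 CPM per kilobase in the cKO-labelled library and 0.397 and 0.344 in the WT-labelled library, with overlapping intervals. The order depends on the length used. Scaled by the length of the transcript with the longest coding sequence, Casp4 moved to 7.92 CPM per kilobase in the cKO-labelled library, where its counting interval overlapped that of Mefv (6.62), and to 18.1 in the WT-labelled library, where it overlapped those of Nlrp3 (17.9), Casp1 (16.6) and Mefv (15.8).

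**Figure D3:**
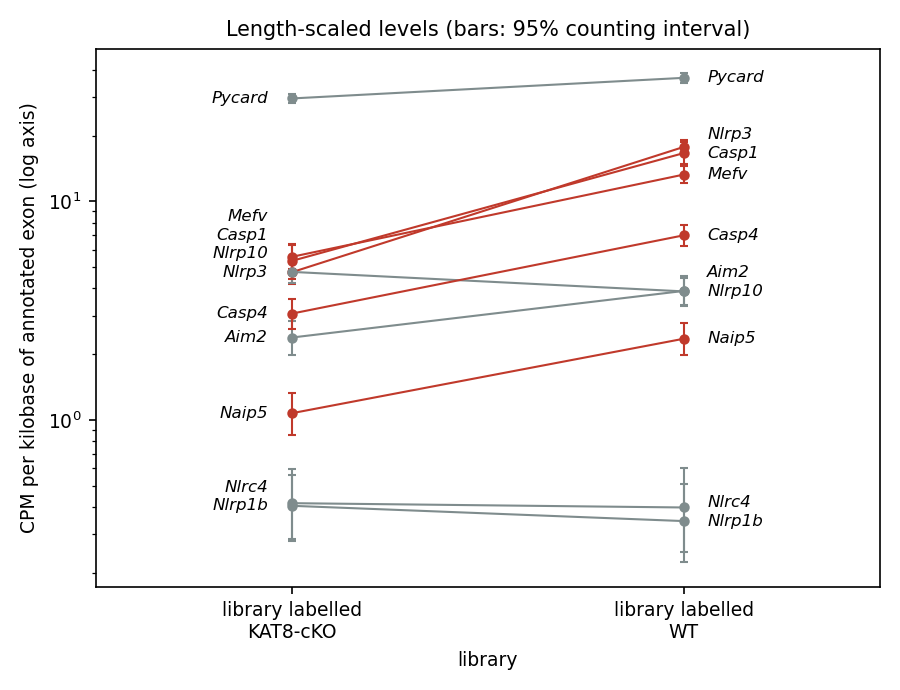
CPM per kilobase of annotated exon on a log axis, with the cKO-labelled library on the left and the WT-labelled library on the right, a line for each gene and bars for exact Poisson 95% counting intervals. Red lines are the 5 genes called lower. In the cKO-labelled library Nlrp10 (4.76) lies level with Nlrp3 (4.74), while in the WT-labelled library it lies at 3.87, below Nlrp3 at 17.8.

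Other sensors and NLR genes were mostly within 2-fold. Of 17 listed, 10 were measured and 9 stayed within the limit, with none higher (median log2 ratio -0.49). The lower gene was Naip2. With a pseudocount of 0.1 CPM 1 gene was higher, Nlrc3, named after its value was seen, which had 69 counts in the cKO-labelled library and 26 in the WT-labelled library (ratio 2.11, interval 1.32 to 3.45). The most abundant were Nod2 and Nod1, cytosolic receptors for bacterial peptidoglycan fragments. Nod2 had 57.8 CPM in the cKO-labelled library and 43.7 CPM in the WT-labelled library (ratio 1.32), and Nod1 had 55.6 and 44.9 CPM (ratio 1.24). Nlrp2, Nlrp4c, Nlrp9b and Nlrp14 had no count in either library.

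The 8 other caspase genes, which include the apoptotic ones, had 1 lower member and no higher one (median -0.03). The lower one was Casp14, a caspase of cornifying keratinocytes, with 49.7 CPM in the cKO-labelled library and 231 CPM in the WT-labelled library (4.64-fold lower, interval 4.27 to 5.04). Casp14 also stands in the list of late epidermal differentiation. With plain CPM 1 gene was higher, Casp9, the initiator caspase of the mitochondrial pathway, named after its value was seen. It had 403 counts in the cKO-labelled library and 168 in the WT-labelled library (ratio 1.90 as scaled here, interval 1.59 to 2.29). Its exons overlap those of Cela2a and Ctrc. Casp8, the initiator of death receptor apoptosis, had 37.9 and 43.5 CPM in the same order (ratio 0.871).

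The substrates of the caspases and the genes of release included several lower genes. The limit was passed downward by 5 of the 9 and upward by none (median -1.07). Il1b, the precursor gene of the main caspase-1 product, had 3936 counts in the cKO-labelled library and 14267 in the WT-labelled library (4.57-fold lower, interval 4.41 to 4.73), and Il18 had 75 and 203 counts (3.41-fold lower, interval 2.60 to 4.51). Il1a, which encodes the alarmin IL-1 alpha, had 162 and 741 counts, and the gasdermin gene Gsdmc had 297 and 739. The fifth, Ninj1, which drives membrane rupture after pore formation and is named after its value was seen, had 41.1 CPM in the cKO-labelled library and 87.6 CPM in the WT-labelled library.

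Gsdmd, the pore gene that both inflammatory caspases act on, also named after its value was seen, stayed within 2-fold at 22.7 CPM in the cKO-labelled library and 36.2 CPM in the WT-labelled library (ratio 0.626, interval 0.540 to 0.725). Exons of Il1a and Il1b overlap those of antisense genes, and 3 genes were lower when genes that share exons were left out. The number of Il1b counts per Casp1 count was 33.9 in the cKO-labelled library and 49.7 in the WT-labelled library.

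Genes of priming and activation went both ways, with 3 lower and 2 higher of 20 measured (median -0.23), and 5 lower with a pseudocount of 0.1 CPM. The lower ones were the guanylate-binding protein genes Gbp7 and Gbp2, whose family helps expose cytosolic bacterial products, and Tlr2, a receptor for bacterial lipopeptides. Gbp7 had 42 counts in the cKO-labelled library and 314 in the WT-labelled library, Gbp2 had 200 and 740, and Tlr2 had 408 and 1408. Of these, Gbp2 and Gbp7 share exons with another gene, and 1 gene was lower when such genes were left out. Tlr7, the receptor gene for imiquimod, named after its value was seen, had 80 counts in the cKO-labelled library and 138 in the WT-labelled library (ratio 0.460, interval 0.345 to 0.610). Its log2 ratio of CPM + 1 was -0.99, just short of the limit. Tlr4, the lipopolysaccharide receptor gene, was higher at 202 counts in the cKO-labelled library, against 27 in the WT-labelled library (ratio 5.94, interval 3.96 to 9.24).

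The other higher gene, named after its value was seen, was Nek7, which encodes a kinase that binds NLRP3 and is needed for its assembly. Nek7 had 1367 counts, or 94.2 CPM, in the cKO-labelled library and 255 counts, or 22.1 CPM, in the WT-labelled library (ratio 4.26, interval 3.72 to 4.88). An exon of Nek7 overlaps one of Gm28501. The number of Nlrp3 counts per Nek7 count was 0.204 in the cKO-labelled library and 3.25 in the WT-labelled library, so the sensor and its partner went in opposite directions. Myd88 and Nfkb1, also named after their values were seen, had log2 ratios of -0.05 and 0.25.

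Inhibitor genes gave 3 lower members out of 10, and none was higher (median -0.52). Il1r2, the decoy receptor for IL-1, had 96.9 CPM in the cKO-labelled library and 451 CPM in the WT-labelled library. Tnfaip3, which encodes the NF-kB inhibitor A20, had 25.8 and 79.6 CPM, and Trim30a had 14.3 and 38.7 CPM. Dpp8 and Dpp9, the brakes on NLRP1B, named after their values were seen, were within 2-fold, with log2 ratios of -0.12 and 0.54.

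Markers of neutrophils and of monocytes and macrophages differed between the libraries as well. All 10 neutrophil markers had log2 ratios below 0, and 8 were called lower (median -1.88). Their summed level was 5083 CPM in the cKO-labelled library and 14040 CPM in the WT-labelled library, and none was at 0 in either. Most of this came from S100a8 and S100a9, which inflamed keratinocytes also express, at 4602 and 10583 CPM in the same order. The other 8 markers, separated after the values were seen, summed to 481 CPM in the cKO-labelled library and 3457 CPM in the WT-labelled library (7.19-fold lower). Ngp and Mmp8 differed most, with log2 ratios of -4.21 and -3.36. The rule called 4 of 10 monocyte and macrophage markers lower and none higher (median -0.29, summed level 754 and 1648 CPM, none at 0), led by Cd14 and Cd163 (-2.42 and -1.85). The part of neutrophil or monocyte content in the lower inflammasome genes was not tested.

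Markers of other cell types went both ways. Dendritic and Langerhans cell markers were higher for 6 of 9 measured (median 1.48, summed level 321 and 121 CPM in the cKO-labelled and WT-labelled libraries), and Xcr1 was at 0 in the WT-labelled library. T cell markers were higher for 4 of 7 (median 1.05, 242 and 97.8 CPM). Most of these sums came from Thy1 alone, at 215 CPM in the cKO-labelled and 86.7 CPM in the WT-labelled library. Sebaceous gland markers were higher for 7 of 7 (median 3.26, 8425 and 1679 CPM). Skeletal muscle markers were lower for 7 of 8 (median -2.70, 2709 and 13554 CPM) and adipocyte markers for 7 of 8 (median -3.64, 195 and 2841 CPM). All 6 red blood cell genes were lower (median -3.47, 9.03 and 172 CPM), with Slc4a1 at 0 counts in the cKO-labelled library. The part of any of these in the inflammasome values was not tested.

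**Figure D4:**
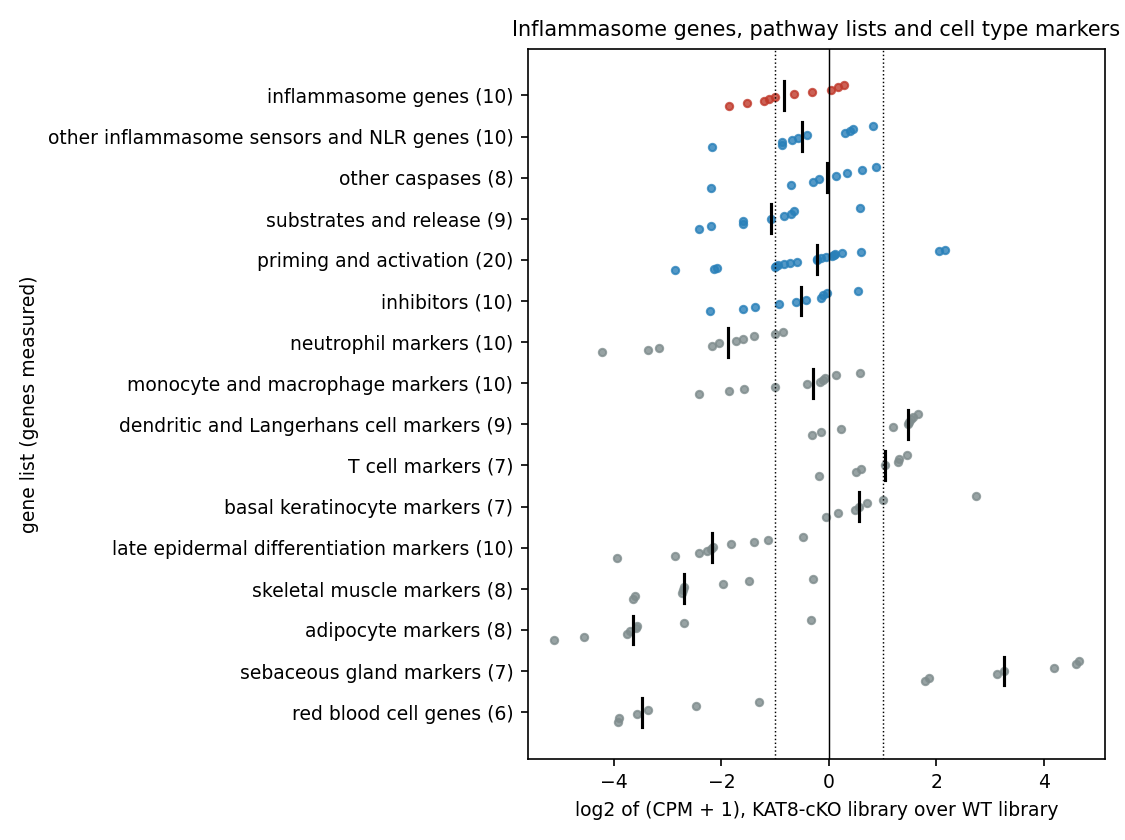
Log2 ratio of CPM + 1, cKO-labelled over WT-labelled library, for every measured gene of the inflammasome group (red), the pathway lists (blue) and the marker lists (grey), with black bars at the medians and dotted lines at 2-fold. The inflammasome median is -0.83. Medians are -1.88 for neutrophil markers, -0.29 for monocyte and macrophage markers and 1.48 for dendritic and Langerhans cell markers. The substrates and release list has the lowest pathway median (-1.07).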

How the data were processed

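Each library has 1 column of counts in the deposited table, whole numbers per Ensembl gene to which the authors had applied no normalization. The submitters' processing notes name HISAT2, StringTie 1.3.0, edgeR and mm10 without a role. How counts were made, and whether by strand, is not stated in the sources used here, so reads of overlapping antisense genes may be mixed.

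Identifiers were paired with symbols, positions and exons of GENCODE M21 (GRCm38), and a second list of gene names gave symbols for identifiers it lacked. A symbol from either source was found for 34267 of 34745. Totals were scaled with TMM factors from edgeR 4.0.16 in R 4.3.3 (1.06 for KAT8-cKO and 0.946 for WT), and ratios used a pseudocount of 1 CPM. Intervals and the calling rule were tested on simulated Poisson counts scaled by plain totals, with folds changed only in genes above a low level. Such counts hold no variation between animals, so that variation, TMM scaling and low genes were not tested. No columns were left unused. Intervals cover counting error only, since they are built from the counts of 1 library per group. Reads lack molecular identifiers, so duplicate reads may be counted and the intervals may be too narrow even for counting error.

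The inflammasome genes, the 5 pathway lists and the 10 marker lists were chosen with earlier results of these data known. Of the pathway lists, Gm12250 was not analysed here. The rule for names took all 10 inflammasome genes and, per pathway list, up to 4 genes with the largest log2 ratios of at least 1 in size, or where fewer than 2 reached it also the 2 most abundant, and from a marker list up to 2 genes. Casp12, Nlrp1a, Naip1, Naip3 and Naip6 are named as neighbours or close copies. Alternatives were 5 other scalings (including DESeq2 1.42.0 size factors), a pseudocount of 0.1, no filter or 5 CPM, a 1.5-fold limit and leaving out genes that share exons.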

Additional observations from a re-analysis of the deposited data

How the results depend on the processing

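Nlrp3, Mefv and Casp1 were at least 2-fold lower in the cKO-labelled library under every setting of scaling, pseudocount, filter and exon sharing, with log2 ratios from -1.90 to -1.70, from -1.25 to -1.05 and from -1.63 to -1.38. The count of lower inflammasome genes was 5 as reported and 3 with plain CPM, where Casp4 and Naip5 missed the limit. It was 6 with a 1.5-fold limit, which adds Aim2. Among all measured genes, the share called lower was 8.63%, 6.94% and 17.2% under these settings in the same order. Naip5 also missed it with median-of-ratios size factors (-0.998) and with the 50 most abundant genes left out of the totals (-0.93). No inflammasome gene was higher under any of the 10 alternatives. Plain CPM gave 964 genes higher and 1056 lower among all measured genes, against 695 and 1315 as reported, and leaving out the 50 most abundant genes gave 922 and 1198. Summing Naip1, Naip2, Naip5 and Naip6, an alternative chosen after seeing the data, gave a log2 ratio of -1.69 for the sum, of which Naip2 supplied 106 counts in the cKO-labelled and 420 in the WT-labelled library, while Naip5 alone was at -1.01. The neutrophil marker median was -2.11 without S100a8 and S100a9, also chosen after seeing the data. No paired analysis was possible because there was 1 library per genotype. At 22 to 37 counts, Nlrc4 and Nlrp1b could not be resolved within 2-fold.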
